A study of Homo sapiens with 4 samples.

Results

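The genes described here are the EGF receptor family and its ligands, 10 of the 30716 genes in the deposited table: the 4 receptors EGFR, ERBB2, ERBB3 and ERBB4 and the 6 ligands AREG, EREG, HBEGF, TGFA, BTC and EPGN. They were chosen by gene name, and each name matched 1 row. RNA came from KYSE30, an established cell line of human squamous carcinoma of the esophagus, grown in DMEM with serum and selected with puromycin for a stable short hairpin RNA. Of the 4 libraries, 2 came from cells labelled negative control (shNC) and 2 from cells labelled YY1 knockdown (shYY1), YY1 being a zinc finger transcription factor. The labels do not state the hairpin sequences, how many hairpins were used, whether a group is 1 clone, or whether replicates were separate cultures. The p-values below therefore measure the spread between these libraries, which may be technical, and a loss of YY1 and other effects of a hairpin cannot be told apart.

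The 4 receptors are surface tyrosine kinases that pair when a ligand binds and pass the signal to the RAS-ERK and PI3K-AKT routes. The 6 ligands are made as membrane-anchored precursors that proteases such as ADAM17 cut free. All 6 bind EGFR, while neuregulins bind ERBB3 and ERBB4, and ERBB2 serves mainly as a pairing partner. EGFR is commonly abundant in keratinocytes and squamous carcinomas, and AREG, EREG, HBEGF and TGFA are known there as genes that EGFR signalling itself can switch on.

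Library totals ranged from 67390336 to 72499865 counts. YY1, the targeted gene, was at 116 and 110 CPM (counts scaled to library size with TMM factors) in shNC and 37.1 and 34.3 CPM in shYY1, 3.17-fold lower and in the direction its labels give (log2 fold change -1.67 ± 0.088 SE, edgeR adjusted p = 6.18e-05). Of 10 markers of squamous epithelium, 8 were at 1 CPM or more in every library, among them TP63 (44.6 to 53.5 CPM), SFN and CDH1, but the basal keratin KRT5 was at 0.357 to 0.641 CPM and the plakophilin PKP1 at 0 to 0.194 CPM. The extraction text of the labels names retina. Of 10 retina markers 3 could be measured, and their summed level was 0.484 to 1.22 CPM. Summed markers of stroma were at 4.76 to 7.15 CPM, of immune cells at 4.14 to 6.11 CPM with PTPRC and CD3E at 0, and of endothelium at 4.25 to 4.87 CPM. Here 3 of 6 stroma, 5 of 6 immune and 3 of 4 endothelium markers could be measured. Most of each sum was 1 gene, COL1A1 (4.36 to 6.88 CPM), CD68 (3.87 to 5.25 CPM) and CDH5 (4.13 to 4.76 CPM). Summed squamous markers were at 929 and 986 CPM in shNC and 1099 and 1091 CPM in shYY1. The part of this difference in the results below was not tested. Most of this sum was SFN (324 to 448 CPM), EPCAM and CDH1. Among the 8 markers at 1 CPM or more, the keratins KRT14 and KRT17 were at only 3.74 to 4.67 and 1.18 to 1.74 CPM. KRT6A was higher, at 31.5 to 39.0 CPM. The sum is therefore not a measure of the keratins.

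After YY1 knockdown the transcript of EGFR, the receptor for all 6 ligands, fell 1.92-fold, while those of its ligands AREG, EREG and TGFA rose 2.08-fold, 1.87-fold and 1.66-fold. The other measured members, ERBB2, ERBB3, HBEGF, BTC and EPGN, did not pass the test. The comparison asks which of these transcripts differ between the hairpins, and it was made with edgeR's quasi-likelihood test over all 18035 tested genes with Benjamini-Hochberg adjustment and a threshold of 0.05. Of the 4 receptors 3 could be tested and 1 was called lower, beside 4.9% of all tested genes called lower. All 6 ligands could be tested and 3 were called higher, beside 5.05% of all tested genes called higher. Because RNA was taken from bulk cultures, fewer cells with a transcript and less of it per cell cannot be told apart.

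**Figure D1:**
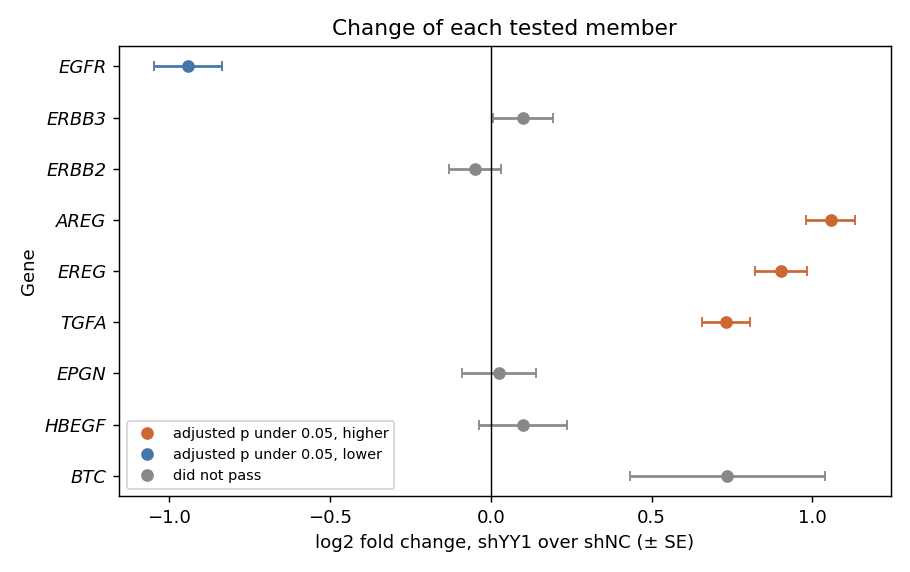
Change of the 9 tested receptor and ligand genes, as the log2 fold change of shYY1 over shNC with its SE from edgeR's quasi-likelihood test on 2 libraries per group. EGFR lies at -0.94, AREG, EREG and TGFA lie at 1.06, 0.90 and 0.73, and the bars of ERBB2, EPGN and HBEGF cross 0.

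EGFR (ENSG00000146648, chromosome 7, 55019017 to 55211628, plus strand) had 256110 and 232273 counts with the control hairpin and 128996 and 119280 after knockdown. Scaled to CPM these were 3657 and 3220 against 1836 and 1746. Both shYY1 libraries were below both shNC libraries, and the gap between the groups was larger than the spread within either. The log2 fold change was -0.94 ± 0.105 (SE), a level 1.92-fold lower (adjusted p = 0.0015). Without each library in turn and under all other alternatives the value ranged from -1.02 to -0.84 with an adjusted p of at most 0.00667. The antisense gene EGFR-AS1, which overlaps EGFR on the other strand, had 120 and 49 counts in shNC and 53 and 40 in shYY1. The labels do not say whether counting used strand, so reads from overlapping genes cannot be told apart.

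ERBB2 and ERBB3 differed between groups by less than the test could call. ERBB2 (ENSG00000141736, chromosome 17, 39687914 to 39730426, plus strand), the partner that binds no known ligand itself, was at 82.6 and 82.2 CPM in shNC and 77.4 and 81.7 CPM in shYY1. Its groups did not overlap, but they lay close together and the log2 fold change was -0.05 ± 0.0804 (SE, adjusted p = 0.774). ERBB2 overlaps MIEN1 and PGAP3 on the other strand, with 1903 to 2183 and 390 to 697 counts per library, beside 5441 to 5926 for ERBB2. ERBB3 (ENSG00000065361, chromosome 12, 56076799 to 56103505, plus strand), a neuregulin receptor with a weak kinase of its own, was at 82.3 and 79.4 CPM in shNC and 80.7 and 92.8 CPM in shYY1. The groups of ERBB3 overlapped, and its log2 fold change was 0.10 ± 0.0924 (SE, adjusted p = 0.567). Without shYY1 replicate 2, the library with the highest ERBB3, the value was -0.001 (adjusted p = 0.999).

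ERBB4 (ENSG00000178568, chromosome 2, 211375717 to 212538802, minus strand), the other neuregulin receptor, had 0 counts in both shNC libraries and in shYY1 replicate 1, and 4 counts in shYY1 replicate 2. A count of 3, the limit that a count of 0 allows, corresponds to 0.0416 to 0.0439 CPM in these libraries, a limit that covers counting error only. Both group means lay under 3 counts, so no fold change is given.

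AREG (ENSG00000109321, chromosome 4, 74445136 to 74455005, plus strand) encodes amphiregulin, a ligand of EGFR. It had 14135 and 15020 counts with the control hairpin against 29748 and 29338 after knockdown, which is 202 and 208 CPM against 423 and 430 CPM. The libraries of each group were close together and the groups lay far apart. The log2 fold change was 1.06 ± 0.0772 (SE), a level 2.08-fold higher (adjusted p = 0.000276).

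EREG (ENSG00000124882, chromosome 4, 74365145 to 74388749, plus strand) encodes epiregulin, which binds EGFR and ERBB4. It was at 132 and 120 CPM in shNC and at 236 and 235 CPM in shYY1, with no overlap and with most of the spread in shNC. Its log2 fold change was 0.90 ± 0.08 (SE), or 1.87-fold (adjusted p = 0.000642).

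TGFA (ENSG00000163235, chromosome 2, 70447284 to 70553826, minus strand) encodes transforming growth factor alpha, an EGFR ligand made by many carcinomas. It had 6853 and 7265 counts in shNC and 11323 and 11515 in shYY1, or 97.9 and 101 CPM against 161 and 169 CPM. Again both shYY1 libraries were above both shNC libraries. The log2 fold change was 0.73 ± 0.0755 (SE), or 1.66-fold (adjusted p = 0.00107). AREG, EREG and TGFA were called higher in all 14 alternatives, with log2 fold changes from 1.00 to 1.08 for AREG, 0.82 to 0.97 for EREG and 0.65 to 0.77 for TGFA, and with adjusted p-values of at most 0.00226, 0.00489 and 0.00391.

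The other ligands were less abundant. BTC, betacellulin, a ligand of EGFR and ERBB4 (ENSG00000174808, chromosome 4, 74744759 to 74794523, minus strand), had only 98 and 88 counts in shNC and 137 and 165 in shYY1. Although its groups did not overlap and its log2 fold change of 0.74 ± 0.304 (SE) was of the size of that of TGFA, it did not pass the test (unadjusted p = 0.0389, adjusted p = 0.172). Its value ranged from 0.58 to 0.89 over the alternatives.

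HBEGF, heparin-binding EGF-like growth factor (ENSG00000113070, chromosome 5, 140332843 to 140346603, minus strand), was at 10.98 and 10.88 CPM in shNC and 11.71 and 11.73 CPM in shYY1. The groups did not overlap, but the log2 fold change was 0.10 ± 0.137 (SE, adjusted p = 0.726). EPGN, epigen (ENSG00000182585, chromosome 4, 74308470 to 74316789, plus strand), was at 28.6 and 24.3 CPM in shNC and 26.8 and 27.0 CPM in shYY1. Both shYY1 libraries of EPGN lay between the shNC libraries. Its log2 fold change was 0.03 ± 0.116 (SE, adjusted p = 0.931), and the sign turned with the scaling and the library left out, from -0.08 to 0.15. The median log2 fold change was 0.73 over the 6 ligands and -0.01 over all tested genes.

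Levels of different genes were compared per length, with the FPKM values of the authors (fragments scaled by gene length and library size). With the counts of shNC replicate 1 these values imply lengths of 14.8, 12.2, 10.5 and 1.94 kb for EGFR, ERBB2, ERBB3 and AREG. Their GENCODE 29 transcripts with the longest coding sequence have 9821, 4545, 5919 and 956 bases. The order of genes, the shares and the levels of the ratios below depend on the lengths used. In shNC the order of levels was EGFR (257 and 214 FPKM), AREG (108 and 106), EREG (20.2 and 17.6), TGFA (17.5 and 17.1), ERBB3 (8.18 and 7.47), EPGN (7.60 and 6.11), ERBB2 (7.02 and 6.62), HBEGF (3.22 and 3.02) and BTC (0.458 and 0.382). The libraries of EPGN overlapped those of its neighbours ERBB3 and ERBB2, and the means of EREG (18.9 ± 1.90, SD, n = 2) and TGFA (17.3 ± 0.297) differed by less than the SD of EREG. In shYY1 AREG came first, at 215 and 213 FPKM, before EGFR at 123 and 114 FPKM, EREG at 34.5 and 33.5 FPKM and TGFA at 27.4 and 27.9 FPKM. Below these the order was as in shNC, with means of 8.08 FPKM for ERBB3, 6.71 for EPGN, 6.35 for ERBB2, 3.23 for HBEGF and 0.675 for BTC. Among all genes in the table, ranked by mean FPKM, EGFR went from place 123 in shNC to place 281 in shYY1 and AREG from place 301 to place 151.

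**Figure D2:**
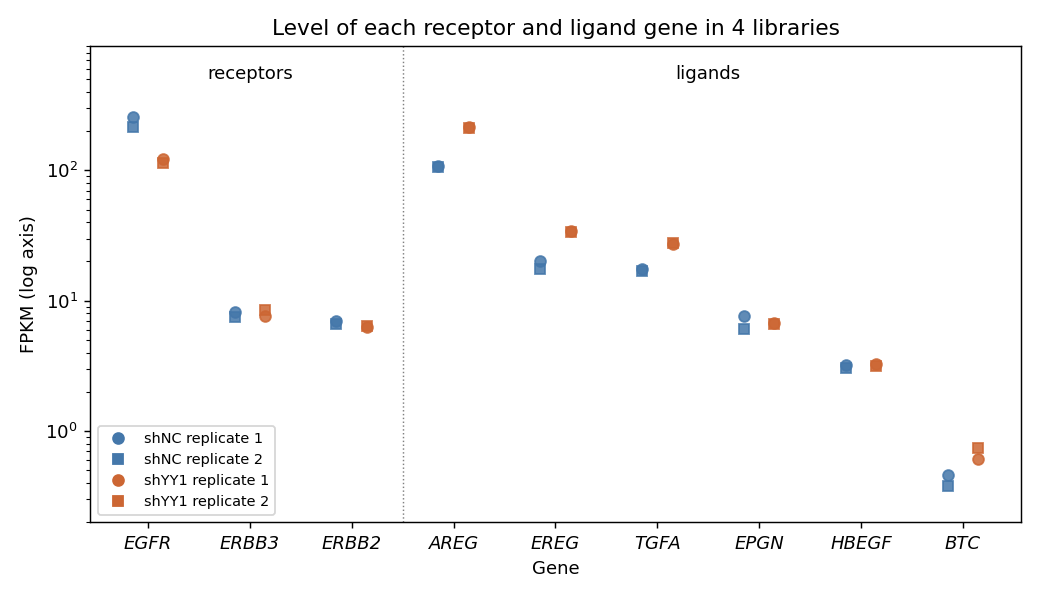
FPKM of the receptor and ligand genes on a log axis, with 1 point per library, circles for replicate 1 and squares for replicate 2. ERBB4, at 0 FPKM in 3 of the 4 libraries, is not drawn, and EGFR and AREG change places between the groups.

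EGFR made up most of the receptor transcripts in every library. Its share of the summed FPKM of the 4 receptors was 94.4% and 93.8% in shNC and 89.8% and 88.3% in shYY1. The shares of ERBB2 (2.58% and 2.90% against 4.59% and 5.01%) and ERBB3 (3.01% and 3.27% against 5.58% and 6.64%) were higher in shYY1, while their own levels did not pass the test. Among the ligands AREG held 68.8% and 70.5% of the summed FPKM in shNC and 74.8% and 74.7% in shYY1. HBEGF held 2.05% and 2.02% of it in shNC and 1.14% and 1.12% in shYY1.

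A ratio of 2 genes within a library does not depend on the scaling between libraries, so it sets the lower receptor against the higher ligands directly. The ratio of AREG to EGFR in FPKM was 0.421 and 0.493 in shNC and 1.76 and 1.87 in shYY1, so AREG was below EGFR in each shNC library and above it in each shYY1 library. The ratio of EREG to EGFR was 0.0789 and 0.0820 in shNC and 0.281 and 0.295 in shYY1. For TGFA it was 0.0681 and 0.0796 against 0.223 and 0.246. The mean ratios in shYY1 were 3.98, 3.59 and 3.18 times those in shNC for AREG, EREG and TGFA. HBEGF and EPGN, whose own levels did not pass, had ratios to EGFR 2.05 and 1.96 times as high in shYY1, beside mean EGFR levels of 235 FPKM in shNC and 118 FPKM in shYY1. That of BTC, which did not pass either, was 3.22 times as high. The summed ligands stood to the summed receptors as 0.577 and 0.656 in shNC and as 2.11 and 2.22 in shYY1. These ratios are descriptions and no test was made on them, since the members were chosen with results known.

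**Figure D3:**
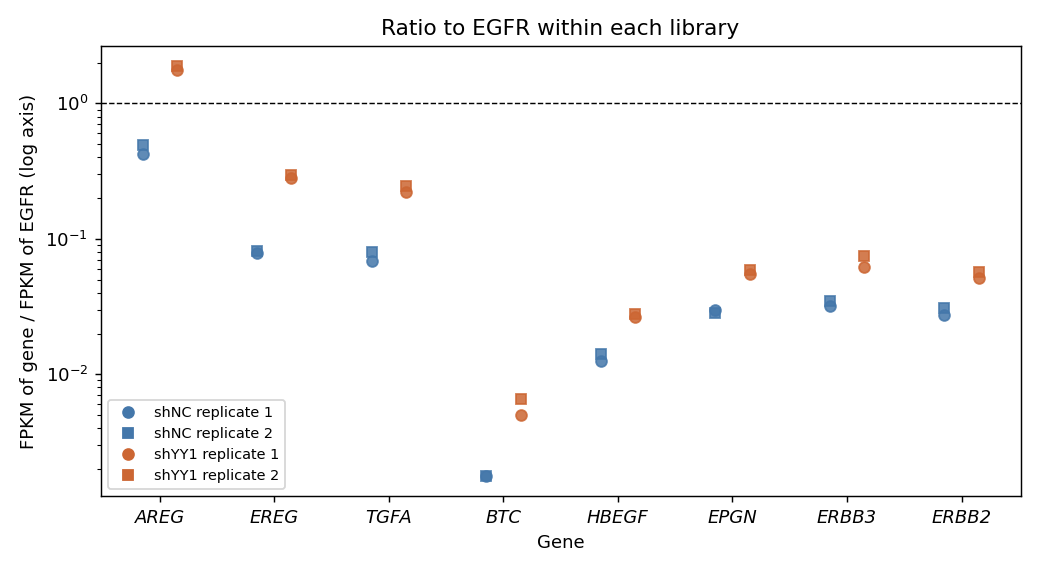
FPKM of each gene divided by the FPKM of EGFR in the same library, on a log axis, with 1 point per library. The dashed line marks equal FPKM, and AREG lies above it in both shYY1 libraries, at 1.76 and 1.87, and below it in both shNC libraries.

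The genes EPGN, EREG, AREG and BTC lie on chromosome 4 within 486.1 kb, in this order, with 1 other gene of the table, AC239584, between AREG and BTC. EREG and AREG, which rose, are separated by 56.4 kb, and EPGN, which did not pass, ends 48.4 kb before EREG. BTC starts 289.8 kb after the end of AREG. Within 500 kb on either side of the span the table lists 15 genes, of which 9 could be tested. EREG and AREG were the 2 called, beside 5.05% of all tested genes called higher and 4.9% lower. The window was set by the ligand genes, and both called genes are among them. The neighbour MTHFD2L, a mitochondrial folate enzyme, was at 22.3 and 19.8 CPM in shNC and 17.9 and 18.5 CPM in shYY1 (log2 fold change -0.21 ± 0.118 SE, adjusted p = 0.318). PARM1, a mucin-like membrane protein, was at 2.74 and 1.57 CPM in shNC and 3.37 and 3.35 CPM in shYY1 (0.64 ± 0.307 SE, adjusted p = 0.238).

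**Figure D4:**
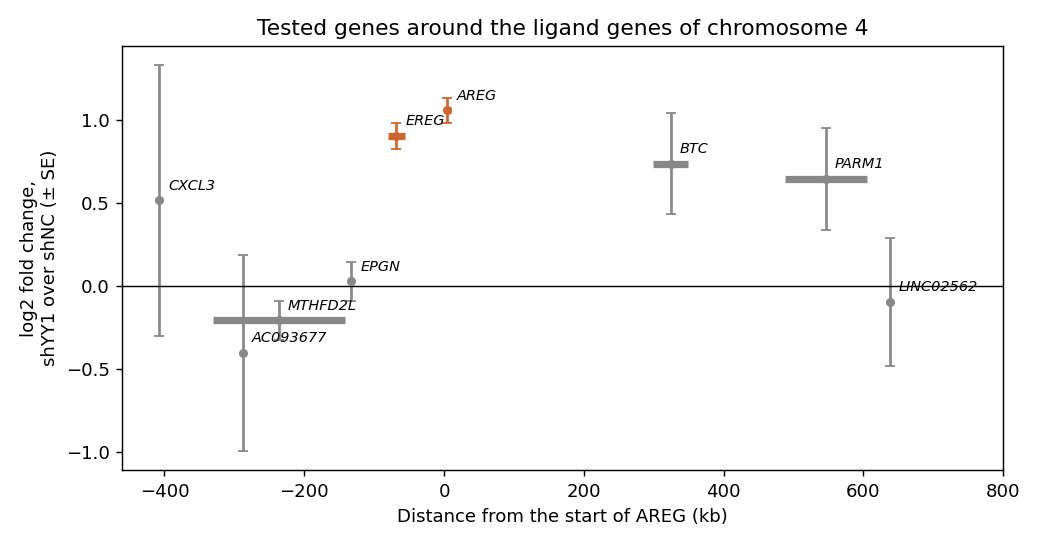
Log2 fold change (shYY1 over shNC, with SE) of the 9 tested genes around the ligand genes of chromosome 4, against distance from the start of AREG in kb. Thick horizontal bars span each gene, and EREG and AREG, in orange, are the 2 that passed the test. Both are among the ligand genes that set the window.

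The windows of 250 bases before the start sites of the 4 called members are shown because these genes moved together or against each other (RefSeq, GRCh38.p14). Capitals mark 4 motifs searched on both strands, namely AANATGGC for YY1, TGANTCA for AP-1, TGACGT for the cyclic AMP response element and GGGCGG for SP1. The windows are chr4:74444886-74445135 for AREG and chr4:74364895-74365144 for EREG, both plus strand, chr2:70553827-70554076 for TGFA, minus strand, and chr7:55018767-55019016 for EGFR, plus strand. RefSeq windows were found for 9 of the 10 members, and these 4 end at the gene starts of the deposited table.
AREG: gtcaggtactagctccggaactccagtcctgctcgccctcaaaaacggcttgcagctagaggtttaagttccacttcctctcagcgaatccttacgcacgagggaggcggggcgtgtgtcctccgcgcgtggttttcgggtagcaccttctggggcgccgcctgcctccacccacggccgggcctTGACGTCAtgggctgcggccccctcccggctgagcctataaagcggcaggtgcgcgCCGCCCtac
EREG: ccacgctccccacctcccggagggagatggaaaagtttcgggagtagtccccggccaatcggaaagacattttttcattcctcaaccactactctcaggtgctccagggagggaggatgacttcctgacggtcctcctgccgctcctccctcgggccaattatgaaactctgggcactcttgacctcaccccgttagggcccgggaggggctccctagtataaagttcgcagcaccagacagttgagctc
TGFA: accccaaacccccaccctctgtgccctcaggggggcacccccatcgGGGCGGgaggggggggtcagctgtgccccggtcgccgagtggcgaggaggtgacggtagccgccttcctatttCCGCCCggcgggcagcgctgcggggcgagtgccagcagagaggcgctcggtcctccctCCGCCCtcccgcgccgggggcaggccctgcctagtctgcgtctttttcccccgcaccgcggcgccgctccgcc
EGFR: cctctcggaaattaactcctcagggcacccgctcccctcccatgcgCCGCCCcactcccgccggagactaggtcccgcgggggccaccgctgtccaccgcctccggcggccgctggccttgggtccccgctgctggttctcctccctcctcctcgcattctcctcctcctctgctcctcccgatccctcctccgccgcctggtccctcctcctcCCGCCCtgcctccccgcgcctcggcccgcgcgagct

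The window of AREG holds TGACGT on both strands in 1 palindrome, TGACGTCA, beginning 65 bases before the start, and an SP1 word 9 bases before it. TGACGT was found in 7.1% of all 35116 promoter windows of this length. Those of TGFA and EGFR hold the SP1 word at 3 and 2 places, as do 42.6% of all windows at 1 place or more, and the window of EREG holds none of the 4 motifs. HBEGF, which did not pass the test, holds the SP1 word at 5 places. The YY1 word was found in 3.86% of all windows and in 0 of the 11 windows of those 9 members, and the AP-1 word in 6.57% of all windows, in that of ERBB2 and in a second RefSeq window of EGFR. A word is a run of letters and not a shown site, and a window without it says nothing of the factor.

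The 3' UTRs were searched for 2 overlapping words of 7 bases, TTCAGAA and TCAGAAA, words chosen after an earlier analysis of these data found genes with them to be lower. Of 9647 genes with a searched 3' UTR (GENCODE 29, transcript with the longest coding sequence), 2925 or 30.3% held either word. Their median log2 fold change was -0.11, against 0.07 for genes with neither, and their median 3' UTR had 2666 bases against 716. A further word searched, TCGGAGA, was in 176 of the 9647 genes or 1.82%, with a median log2 fold change of 0.15. No basic coding transcript of the members holds TCGGAGA. The 3' UTR of EGFR, 6011 bases long, holds TTCAGAA at 1 position and TCAGAAA at 2. They are shown with the words in capitals and 10 bases on either side at chr7:55207155-55207181 and chr7:55211511-55211537 (GRCh38, plus strand).
EGFR first site: gaagaaatggTTCAGAAAatattttca
EGFR second site: atactgttgaTCAGAAAtgttgattgt

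Of the 7 basic coding transcripts of EGFR, 3 hold TTCAGAA and 4 hold TCAGAAA. ERBB4 holds TCAGAAA in all 3 of its basic coding transcripts. TGFA, which rose, holds each word in 1 of its 5 such transcripts, and the other 7 members held neither in any. The TGFA transcript with the longest coding sequence has a 3' UTR of only 87 bases and holds neither. Whether these words have a part in the lower EGFR was not tested.

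Other genes of the pathway were described from 5 lists. Of the other EGF-type ligands, NRG1, a neuregulin that binds ERBB3 and ERBB4, rose from 21.5 and 19.3 CPM in shNC to 32.4 and 33.5 CPM in shYY1 (log2 fold change 0.69 ± 0.109 SE, adjusted p = 0.00628). With limma-trend on FPKM the rise of NRG1 did not pass, at 0.58 with a pseudocount of 0.1 (adjusted p = 0.0997) and 0.32 with a pseudocount of 1. NRG4 was at 2.16 and 1.97 CPM against 1.37 and 1.35 CPM and did not pass (-0.60 ± 0.294 SE, adjusted p = 0.247). EGF itself was at 0.132 to 0.598 CPM in all libraries, with overlapping groups. NRG2 had 0 counts in both shNC libraries and 4 and 12 in shYY1, too few to be tested. NRG3 was not analysed here.

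Of 8 genes of ligand release, 2 rose, 0 fell and 6 did not pass, beside 5.05% of all tested genes higher and 4.9% lower. TIMP3, an inhibitor of ADAM17 and other metalloproteases, rose from 31.4 and 34.4 CPM to 50.1 and 54.3 CPM (0.67 ± 0.0989 SE, adjusted p = 0.00488). FRMD8, which stabilises the ADAM17 complex, rose by 0.37 ± 0.0933 (SE, adjusted p = 0.0422). That call was lost without shNC replicate 1 (0.28, adjusted p = 0.0694), without shYY1 replicate 1 (0.43, adjusted p = 0.104) and without shYY1 replicate 2 (0.31, adjusted p = 0.324). ADAM17, the main sheddase of AREG, EREG, TGFA and HBEGF, was at 53.9 and 49.8 CPM in shNC and 49.2 and 46.3 CPM in shYY1 (-0.12 ± 0.0926 SE, adjusted p = 0.485).

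Of 18 genes of receptor turnover and negative regulation, 1 rose, 3 fell and 14 did not pass. The 1 that rose is near the 5.05% of all tested genes called higher, and the 3 that fell stand beside 4.9% called lower, but each of these 4 calls was lost without at least 1 library. LRIG3, a transmembrane protein of the LRIG family, rose by 0.55 ± 0.107 (SE, adjusted p = 0.0148), a call lost without shYY1 replicate 1 (0.49). RNF41, the ubiquitin ligase that targets ERBB3, fell by 0.44 ± 0.0878 on the log2 scale (SE, adjusted p = 0.0156), and lost its call without shYY1 replicate 1 (-0.43, adjusted p = 0.133) and shYY1 replicate 2 (-0.45, adjusted p = 0.117). STAM2, part of the endosomal sorting machinery for receptors, had -0.52 ± 0.116 (SE, adjusted p = 0.0254), and without shNC replicate 1, shYY1 replicate 1 and shYY1 replicate 2 its adjusted p was 0.0750, 0.0890 and 0.103. SOCS4, which promotes EGFR breakdown, had -0.54 ± 0.131 (SE, adjusted p = 0.0358), and without shNC replicate 1 and shYY1 replicate 2 it stood at -0.33 and -0.48 with adjusted p-values of 0.0899 and 0.0870. ERRFI1, a feedback inhibitor that binds the EGFR kinase, was at 82.7 and 83.4 CPM in shNC and 80.7 and 74.2 CPM in shYY1 (-0.10 ± 0.0835 SE, adjusted p = 0.518).

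Of 26 genes of signal relay, 2 rose, 1 fell and 23 did not pass. Both counts are near the 5.05% and 4.9% of all tested genes called higher and lower. AKT1, a kinase below PI3K, rose from 99.8 and 106 CPM to 138 and 138 CPM (0.43 ± 0.0761 SE, adjusted p = 0.00998), and lost its call without shYY1 replicate 1 (adjusted p = 0.0825) and shYY1 replicate 2 (adjusted p = 0.0867). HRAS, a RAS GTPase, rose by 0.45 ± 0.11 (SE, adjusted p = 0.0370) and lost its call without shNC replicate 1 (0.31, adjusted p = 0.0557) and shYY1 replicate 1 (0.39, adjusted p = 0.187). PIK3R1, a regulatory subunit of PI3K, fell from 19.4 and 15.1 CPM to 10.3 and 7.57 CPM (-0.95 ± 0.189 SE, adjusted p = 0.0159), and lost its call without shNC replicate 1 (-0.76).

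Of 17 ERK-responsive genes, 8 rose, 1 fell and 8 did not pass, beside 5.05% of all tested genes called higher and 4.9% lower. The list was chosen with earlier results of these data known, so its counts and median are descriptions and were not tested. Of the 8, DUSP5, DUSP6 and IER3 kept their calls in all 14 alternatives. The calls of DUSP4, SPRY2, ETV5, FOS and MYC were not followed gene by gene. Over the 5 lists together, fewer genes were called higher when either shYY1 library was left out, too few for all 8 calls to have held. The median of the 17 genes was 0.28 on the log2 scale, against -0.01 over all tested genes. The ERK phosphatases DUSP5 (63.6 and 71.0 CPM in shNC, 123 and 123 CPM in shYY1) and DUSP6 (49.2 and 48.4 CPM against 88.1 and 84.5 CPM) and the early response gene IER3 (126 and 141 CPM against 213 and 214 CPM) had log2 fold changes of 0.87 ± 0.0857, 0.82 ± 0.0826 and 0.68 ± 0.0832 (SE) and the smallest adjusted p-values, 0.000902, 0.00094 and 0.00202. ETV4, an ETS factor downstream of ERK, was the member that fell (-0.35 ± 0.0845 SE, adjusted p = 0.0352), a call lost without shYY1 replicate 1 (adjusted p = 0.222) and shYY1 replicate 2 (adjusted p = 0.295). Medians of the other lists with 8 or more members were 0.11 for ligand release, -0.09 for receptor turnover and 0.02 for signal relay.

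**Figure D5:**
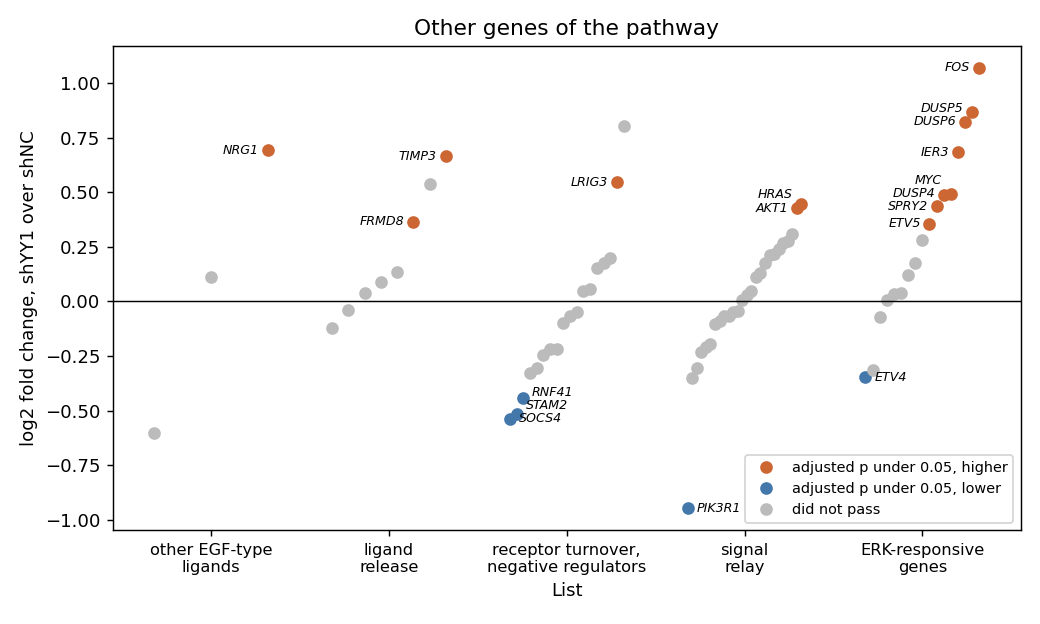
Log2 fold change (shYY1 over shNC) of each tested gene in 5 lists of the pathway, sorted within a list, with genes past an adjusted p of 0.05 coloured and named. Of the 17 ERK-responsive genes 8 were called higher, and of the 18 of receptor turnover and negative regulation 3 were called lower, beside 5.05% and 4.9% of all tested genes. The lists were chosen with earlier results of these data known, and the 8 calls did not all hold when either shYY1 library was left out.

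The genes most like EGFR and AREG over the 4 libraries were sought among 9956 protein-coding genes with a mean of at least 5 CPM, by Euclidean distance of log2 CPM centred on each gene's mean. With 4 libraries this distance mainly compares the size of the group difference. Nearest to EGFR were ANKRD46 (distance 0.05), CDS1 (0.05) and TMEM135 (0.06), with log2 fold changes of -0.93, -0.91 and -0.90. Nearest to AREG were GANAB (0.04), C3orf52 (0.06) and ZDHHC18 (0.06), with 1.06, 1.07 and 1.09. EREG was in place 26 and TGFA in place 87 from AREG, and AREG in place 9899 from EGFR.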

How the data were processed

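Groups and replicate numbers came from the sample titles, and 0 columns belonged to other samples. The authors deposited counts, whole numbers per gene that were used as they stand, and FPKM values, used for levels between genes and as an alternative. For the 9 members above 0, counts and FPKM gave the same length in the 4 libraries to within 1.02 times. Per the submitters' processing notes, Bowtie 0.12.2 and the mouse builds mm8 and mm9 were used, but the table holds human gene IDs, so the aligner, the counter and the build behind it remain not given in the sources used here. Its coordinates are printed as deposited. Where reads are shared by overlapping genes, values are uncertain.

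The filter on low counts was filterByExpr of edgeR, with a minimum count of 10 and a minimum total of 15. The test was edgeR 4.0.16 (R 4.3.3), quasi-likelihood, robust, TMM factors, no block, over all tested genes. The common coefficient of variation was 20.2%, with 2 residual degrees of freedom. Standard errors were derived from fold change and F statistic. The script was tested on simulated data. Alternatives were RLE factors, library totals, no filter, at least 5 CPM in 2 libraries, DESeq2 1.42.0, limma-trend (limma 3.58.1) on log2 CPM and on log2(FPKM + 1) and log2(FPKM + 0.1), no robust estimation, the replicate number as a block, and each library left out.

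The members, the lists, the tests and the 3' UTR words were chosen with earlier results of these data known. Named are all members, YY1, EGF and the neuregulins, the 3 called genes with the smallest adjusted p in each direction of a list, the 3 nearest genes, and called genes near the chromosome 4 ligands. ADAM17, ERRFI1, MTHFD2L and PARM1 were added after their values were seen.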

Additional observations from a re-analysis of the deposited data

How the results depend on the processing

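EGFR was called lower and AREG, EREG and TGFA were called higher in all 14 alternatives, so the counts of 1 receptor lower and 3 ligands higher did not move. The ratios of AREG, EREG and TGFA to EGFR changed by 1.995, 1.84 and 1.67 (log2) with FPKM and with raw counts. Gene length and library size cancel in such a change, so this agreement was fixed in advance and is no check. The number of called genes over the whole table, 1793, was 2711 with DESeq2 and 2902 with the replicate block, and ranged from 1024 to 3304 with 1 library left out. Among the 5 pathway lists 14 genes were called higher and 5 lower. Left-out libraries moved these to between 7 and 21 and to between 1 and 7. Called lower were 9 with the filter at 5 CPM and 3 with either FPKM scale. On both FPKM scales NRG1, STAM2, SOCS4 and PIK3R1 lost their calls (adjusted p from 0.0519 to 0.0997). Without robust estimation FRMD8, SOCS4 and HRAS lost theirs (0.0571, 0.0514 and 0.0526), as did FRMD8 with library totals (0.0506) and limma-trend on log2 CPM (0.0503). The cause of these moves was not tested. Scaling by library totals moved the share of higher calls from 50.8% to 40.3% and the median of all genes from -0.01 to -0.06. That share was 37.2% without shYY1 replicate 1 and 63.5% without shNC replicate 2, so the shares of all genes called higher and lower move with the library left out. The sample titles share replicate numbers between groups but do not say whether same-numbered libraries were handled together. Deviations of same-numbered libraries correlated at 0.019 over 10588 genes, which cannot settle this with 2 libraries per group. The replicate block changed no call of a member. BTC had 88 to 165 counts and ERBB4 0 to 4, and lower levels of ERBB4 could not be measured at this depth.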
